A study of Mus musculus with 6 samples.

Results

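HSF1 is the main activator of genes induced by heat shock. In unstressed cells it is largely held inactive by chaperones, and upon heating it assembles into trimers that bind heat shock elements, which are inverted repeats of a short GAA-containing unit, in promoters and in sites far from genes. The targets known best encode chaperones, and many other bound sites have no established target. Polyglutamine-expanded huntingtin, the protein that causes Huntington's disease, misfolds and engages the same chaperones.

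The regions described here are places where HSF1 gave a strong peak after heat shock in striatal cells with wild-type huntingtin and no peak in any of the other libraries. They were selected on the peak scores themselves. The authors' 4 HSF1 peak lists were joined, and peaks sharing at least 1 base were merged into 6577 regions. A region was a member when every peak in it came from the heat-shocked wild-type library and its highest score was 300 or more. Regions starting between 21 and 24 Mb of chromosome 13 were left out by the rule, and this removed none, because the window held 5 such regions, all with lower scores. In this way 635 regions, or 9.65% of all merged regions, became members. Each consisted of 1 peak.

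The libraries were made by chromatin immunoprecipitation with an antibody to HSF-1 (sc-9144) followed by sequencing. STHdhQ7/Q7 cells (Q7) are a mouse striatal line from wild-type HdhQ7/Q7 embryos, and STHdhQ111/Q111 cells (Q111) come from HdhQ111/Q111 knock-in embryos, whose huntingtin carries the expanded polyglutamine tract. Each line was grown at 33 °C and sampled either untreated or after heat shock at 42 °C for 6 hours, and all cultures were kept in medium with G418. There was 1 library for each of the 4 combinations, so none of the values below has a replicate error and no difference between lines was tested. Each genotype was represented by 1 cell line, and line and genotype cannot be told apart. The 2 control IgG libraries were not analysed here.

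The 4 lists held 260 peaks (Q7, 33 °C), 292 peaks (Q111, 33 °C), 6173 peaks (Q7, 42 °C) and 2161 peaks (Q111, 42 °C). In all lists the lowest score lay between 90 and 90.5. The score is the authors' own value for each peak and is probably a log-transformed p-value, so it grows with sequencing depth as well as with enrichment. Read depth is unknown. A missing peak therefore means that none was called, not that HSF1 was absent. Positions are on mouse build mm9, counted from 1, and no gene name or sequence is given, since the gene and promoter tables at hand are on another build.

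The share of Q7 regions without any other peak fell steadily as the Q7 score rose, and members and non-members were mixed over most of the range. Outside the chromosome 13 window, 6081 regions held a Q7 peak at 42 °C, and 71.9% of these had no peak in another library. Among the 1891 of them with a score of 300 or more, called strong Q7 regions below, this share was 33.6% (95% Wilson interval 31.5 to 35.7). Of the other strong regions, 1252 held a Q111 peak at 42 °C and 4 held a Q7 peak at 33 °C but no Q111 peak. The intervals cover counting error over regions only.

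By score, the Q7-only share was 61.3% (56.7 to 65.8) between 300 and 400, where 265 of 432 regions were members. It was 48.4% (42.6 to 54.2) between 400 and 500, and 36.2% (31.4 to 41.4) between 500 and 700. Between 700 and 1000 it was 23.0% (18.3 to 28.6), and between 1000 and 1500 it was 14.5% (10.8 to 19.1). Each share was lower than the one before it, from the bottom of the list to its top. Just under the threshold, between 200 and 300, 681 of 872 regions, or 78.1% (75.2 to 80.7), were Q7-only. At the top, 6 of 118 regions between 1500 and 2000 and 2 of 89 between 2000 and 3000 were members. From 3000 upwards the count was 0 of 87 regions, which allows a share of up to 3.45% when the limit is set at 3 counts, and up to 4.23% by the upper Wilson bound.

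**Figure D1:**
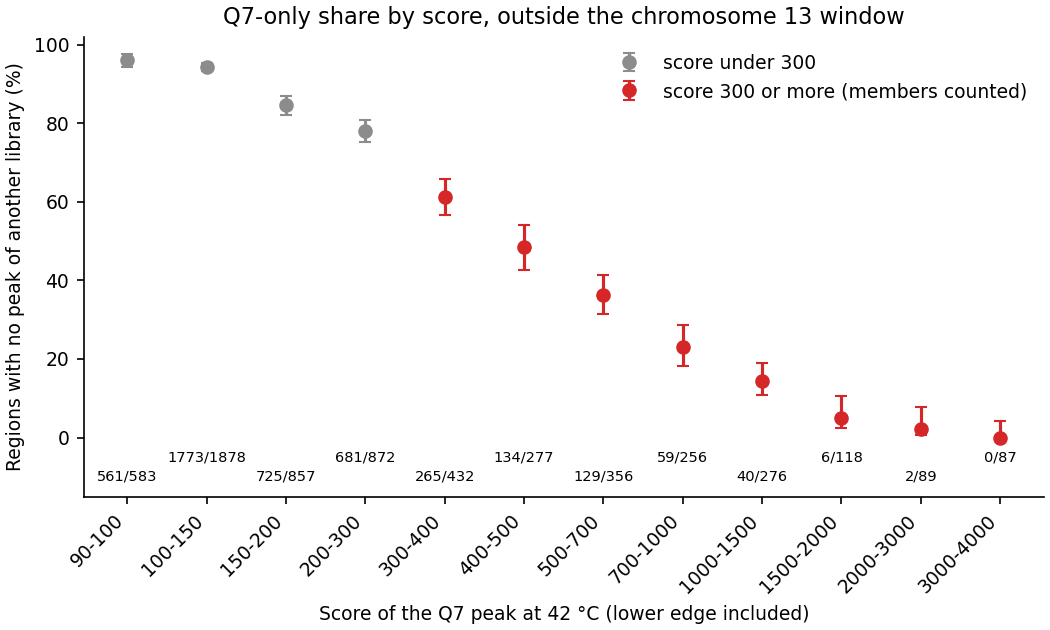
Share of regions with a Q7 peak at 42 °C that hold no peak of another library (y axis, percent), by the score of the Q7 peak (x axis, bins); bars are 95% Wilson intervals and the fractions are Q7-only over all regions. The share falls from 96.2% in the lowest bin to 61.3% at scores of 300 to 400 and to 0 of 87 regions from 3000 upwards.

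Members were thus spread over the upper part of the Q7 list without reaching its top. Their scores ran from 301 to 2581, with a median of 432 and quartiles of 345 and 595. A score of at least 500 was reached by 236 members, at least 1000 by 48 and at least 1500 by 8. The Q7 list held 112 peaks that scored above every member. Its 250 highest-scoring peaks included 5 members, its 500 highest included 29 and its 1000 highest included 153. These values chose the members and are given as a description.

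The threshold cut through a continuous range. The 5 lowest members scored between 301 and 302. They were chr19:40315382-40316018, chr11:21903993-21904628, chr8:87332528-87332853, chr15:66948269-66948984 and chr11:50065527-50066132. The 9 Q7-only regions just under the threshold scored between 299 and 299.9, with 5 of them tied at the lowest of these scores. The 4 above the tie were chr16:95992499-95993027, chr6:134155771-134156105, chr16:8810838-8811397 and chr10:77729554-77730163. Widths were 326 to 716 bases for the former and 335 to 610 bases for the latter, and the ranges overlapped.

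The 20 highest-scoring members lay on 11 chromosomes and were 503 to 1085 bases wide. Of these 20, 15 were more than 100 kb from the nearest Q111 peak at 42 °C. From any other Q7 peak of that temperature, 11 were more than 100 kb away. Among all members, 32.9% lay within 100 kb of such a Q111 peak and 68.3% within 100 kb of such a Q7 peak. A difference between the 20 and the other members was not tested. The median gap to a Q111 peak was 404 kb. The nearest peak of either 33 °C list was at least 531 kb away from each of them.

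The strongest member, chr8:91539358-91540058, stood 113th in the Q7 list with a score of 2581. It was 317 kb from the nearest other Q7 peak and 317 kb from the nearest Q111 peak. The next, chr6:93216641-93217266, stood 151st with a score of 2181, and its nearest Q111 peak was 974 kb away. The member chr18:81429532-81430308 scored 1921, with 677 kb to another Q7 peak. The member farthest from any other Q7 peak among the 20 was chr14:37613008-37613594 (score 1893), with 2.50 Mb to that peak and 3.45 Mb to the nearest Q111 peak at 42 °C. All 4 were single peaks in stretches of at least 149 kb without another peak in the Q7 list.

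A second group of the 20 had company. The member chr15:62152503-62153005 (score 1547) lay 6.71 kb from another Q7 peak, but 282 kb from a Q111 peak. The member chr14:77185999-77186618 (score 1390.3) had a Q7 peak at 765 bases and no Q111 peak within 474 kb. The member chr3:89206300-89207050 (score 1286) lay 7.55 kb from a Q7 peak and 836 kb from a Q111 peak. In these 3 cases a neighbour within 10 kb was called in Q7 cells, and the nearest Q111 peak was far off.

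The other 2 members of the 20 with a Q7 peak within 10 kb also had a Q111 peak close by. They were chr8:11382034-11383084 (score 1538, Q111 peak at 2411 bases) and chr11:77596466-77597399 (score 1404, Q111 peak at 436 bases). The remaining 11, in order of score, were chr11:33871880-33872561, chr16:20426063-20426843, chr2:128597266-128598087, chr1:88369024-88369785, chr5:52700766-52701337, chr15:46768491-46769167, chr11:120661520-120662310, chr3:122937230-122937894, chr18:83228837-83229487, chr1:35970162-35970842 and chr11:70002646-70003730. Their scores ran from 1884 down to 1334, and the gap to the nearest Q7 peak from 15.8 kb at the chromosome 2 member to 921 kb at the chromosome 15 member.

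Across all members, the typical distance to other Q7 peaks was close to that of other heat shock regions. At a limit of 2 kb a smaller share of members than of regions shared with Q111 cells had such a neighbour. The median gap to the nearest other Q7 peak at 42 °C was 47.4 kb (95% interval over regions 42.9 to 55.9). It was 53.3 kb (50.1 to 56.9) for the 3740 Q7-only regions with lower scores. For the 1046 regions that held a 42 °C peak of both lines, none at 33 °C and a Q7 score of 300 or more, called shared strong regions here, it was 47.7 kb (37.3 to 56.5). The 3 intervals overlapped. Another Q7 peak lay within 10 kb of 146 members, or 23.0% (19.9 to 26.4), against 21.5% (20.2 to 22.8) of the weaker and 25.3% (22.8 to 28.1) of the shared strong regions. The members' interval overlapped both of the others. Within 2 kb the share was 7.09% (5.34 to 9.35) for members, 7.86% (7.04 to 8.77) for weaker and 11.2% (9.42 to 13.2) for shared strong regions, and there the intervals of members and shared strong regions did not overlap. At the limits of 500 bases and of 1, 20 and 50 kb they did.

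Distance to Q111 peaks separated members from shared strong regions at more of the limits. A Q111 peak at 42 °C lay within 10 kb of 42 members, or 6.61% (4.93 to 8.82). The share was 7.83% (7.02 to 8.74) for weaker Q7-only regions. For shared strong regions, counting only Q111 peaks other than their own, it was 10.8% (9.06 to 12.8), and this interval did not overlap that of the members. Within 2 kb the shares were 1.73% (0.970 to 3.08), 2.73% (2.25 to 3.30) and 5.16% (3.98 to 6.68). Median gaps were 224 kb (195 to 277) for members, 206 kb (195 to 217) for weaker and 183 kb (165 to 207) for shared strong regions. The intervals of members and shared strong regions were also apart at 1, 2 and 20 kb, but overlapped at 500 bases, at 50 kb and for the median gap. Those of members and weaker Q7-only regions overlapped at every limit and for the median gap. The classes were not matched for score. The difference was not tested, since regions are not replicates. Lack of overlap with a Q111 peak is also part of the rule, whereas distance beyond the region's ends is not.

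**Figure D2:**
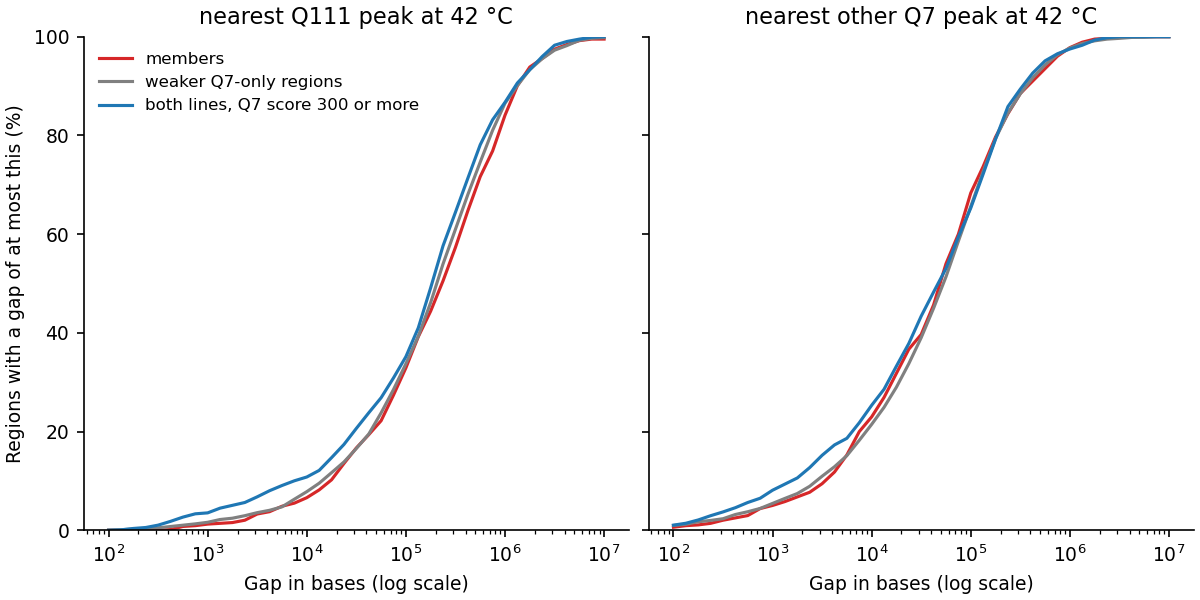
Cumulative share of regions (y axis, percent) with a gap of at most the given number of bases (x axis, log scale) to the nearest Q111 peak at 42 °C (left) and the nearest other Q7 peak at 42 °C (right). On the left the member curve lies below that of shared strong regions at 10 kb (6.61% against 10.8%), and on the right it lies below at 2 kb (7.09% against 11.2%) and close to it at 10 kb (23.0% against 25.3%).

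The nearest neighbours were mostly Q7-only, both around members and around other regions. The nearest region with a Q7 peak at 42 °C was itself Q7-only for 489 of 635 members, or 77.0% (73.6 to 80.1). This share was 72.2% (70.8 to 73.7) for weaker Q7-only and 73.5% (70.8 to 76.1) for shared strong regions. Of all regions with a Q7 peak at 42 °C, 71.2% (70.0 to 72.3) were Q7-only. The members' interval overlapped those of both classes, that of the weaker regions only barely. It lay above that of all regions, which is a plain share of the regions and not a share of nearest neighbours. These differences were not tested. When only neighbours with a score of 300 or more were counted, 35.9% (32.3 to 39.7) of the members had a Q7-only neighbour, against 34.8% (32.0 to 37.7) of the shared strong regions. At this level the strong Q7-only regions were mixed among shared ones.

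The 42 members within 10 kb of a Q111 peak allow a comparison inside 1 list, because 39 of the neighbours also held a Q7 peak at 42 °C. In 25 of these 39 pairs the neighbour had the higher Q7 score, and in 14 pairs the member did. In those 14 pairs the region with the weaker Q7 peak was the one with a Q111 peak, whose Q111 score ranged from 91.2 to 303 with a median of 162. Some members share a neighbour, so the pairs are not independent. Among members of score 500 or more, the member was the higher in 58.8% (36.0 to 78.4) of the pairs, where the higher minimum also takes the lower-scoring members out of the pairs.

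**Figure D3:**
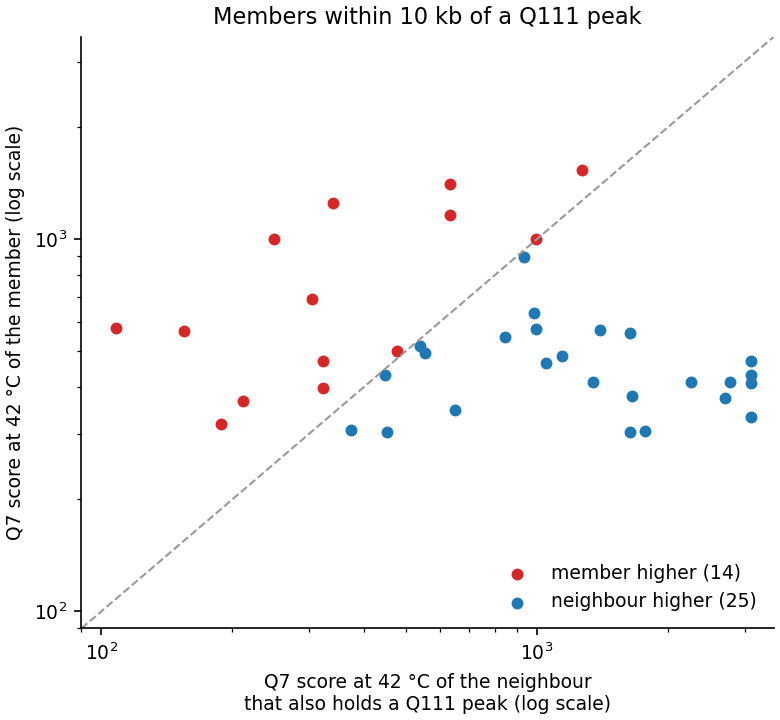
Q7 score at 42 °C of each member within 10 kb of a Q111 peak (y axis, log scale) against the Q7 score of the neighbouring region that holds this Q111 peak (x axis, log scale), for 39 pairs; the dashed line marks equal scores. In 14 pairs the member lies above the line although the neighbour alone has a Q111 peak, and in 25 it lies below. Only the members have a minimum score, set at 300 by the rule.

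In a triplet of Q7 peaks on chromosome 11, the members chr11:77596466-77597399 (score 1404) and chr11:77599275-77600448 (score 1165) flanked a region with a Q7 score of 631. A Q111 peak of score 193 was called in the middle region, at chr11:77597836-77598317. The gaps from the members to this Q111 peak were 436 and 957 bases. The member chr10:12602380-12603102 scored 1253, whereas its neighbour, with a Q111 peak 986 bases away, scored 341 in Q7 and 303 in Q111 cells. The member chr8:11382034-11383084 scored 1538 and its neighbour 1268, with a Q111 peak of score 265 at chr8:11385496-11385871. In each of these cases, which were picked for this order, the site with the lower Q7 score was the one with a Q111 peak.

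In 3 further cases the member lay next to a much stronger shared site. The member chr11:58114510-58115019 (score 571) was 446 bases from a site with peaks in all 4 libraries, with scores of 1396 in Q7 and 1597 in Q111 cells at 42 °C, and 621 and 1258 at 33 °C. The member chr9:75271399-75272182 (score 332) lay 599 bases from a Q111 peak of score 2458, at a site scoring 3100 in Q7 cells. The same Q7 score recurred at other sites near members, and 3100 was also the highest score in the Q111 list at 42 °C. The highest score in the Q7 list at 42 °C was 3217. Whether the score has a ceiling near 3100 was not tested. The member chr1:58087216-58087802 (score 378) lay 562 bases from a Q111 peak of score 183, at a site scoring 1658 in Q7 cells. These members stood beside strong Q7 peaks, and whether they are separate binding sites was not tested.

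The member closest to a Q111 peak, chr4:58414542-58415451 (score 348), lay 385 bases from it, and the neighbour scored 649.9 in Q7 and 139 in Q111 cells. Another of the 5 nearest was chr19:4993667-4994254 (score 399, gap 467 bases), where the neighbour scored 323 in Q7 and 223 in Q111 cells. In all, 4 members lay within 500 bases of a Q111 peak and 8 within 1 kb. Near overlap with a Q111 peak thus concerned 1.26% (0.640 to 2.47) of the members at the 1 kb limit. The share was 1.63% (1.27 to 2.09) for weaker Q7-only regions, and the intervals overlapped. For shared strong regions, counting only Q111 peaks other than their own, it was 3.54% (2.58 to 4.84).

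Peaks at 33 °C were rare around the members. Within 10 kb, 6 members had a 33 °C peak of either line, or 0.945% (0.434 to 2.05). The share was 0.989% (0.719 to 1.36) for weaker Q7-only and 1.53% (0.944 to 2.47) for shared strong regions, and the intervals overlapped. Of the 6, the strongest member was chr10:79363604-79364457 (score 999), 7221 bases from a Q7 peak of score 232 at 33 °C. The others had scores of 313 to 571, and the score of the nearest 33 °C peak ran from 97.3 to 621.

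Regions of the same Q7 score that did have a Q111 peak ranked low in the Q111 list more often at low Q7 scores. In the 148 regions with a Q7 score from 300 to 400, a peak of both lines at 42 °C and none at 33 °C, the median Q111 score was 155 (quartiles 121 and 256). In 37 of them, or 25% (18.7 to 32.5), it was under 120, near the lowest listed score of 90. For Q7 scores from 500 to 700, the median Q111 score was 205 (quartiles 133 and 330.1) and 18.3% (13.5 to 24.3) of 197 regions were under 120. From 1000 to 1500 the median was 333 (quartiles 203 and 562), and 15 of 205 regions, or 7.32% (4.48 to 11.7), were under 120. How many members missed the Q111 list by a small margin cannot be read from these files, and the part of depth was not tested. The limit of 120 was chosen after the scores were seen.

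Median peak width tended to rise across the score bins, but width and score were only weakly correlated among the members. Members did not stand apart in width from shared regions of the same score. Members were 249 to 1741 bases wide, with a median of 597 bases (577 to 614) and quartiles of 500 and 706. The median was 446 bases (439 to 450) for the weaker Q7-only regions and 642 bases (631 to 652) for the Q7 peaks of shared strong regions, which also score higher. Within the score bin from 300 to 400 it was 588 bases (556 to 619) for members and 554 bases (537 to 594) for shared regions. From 500 to 700 it was 602 (561 to 661) and 620 bases (588 to 647), and from 1000 to 1500 it was 698 (621 to 827) and 650 bases (634 to 690). The order changed from bin to bin and the intervals overlapped in each. Across the 635 members, width and log score had a Pearson correlation of 0.19 (Spearman 0.15), both being taken from the same reads of 1 library.

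**Figure D4:**
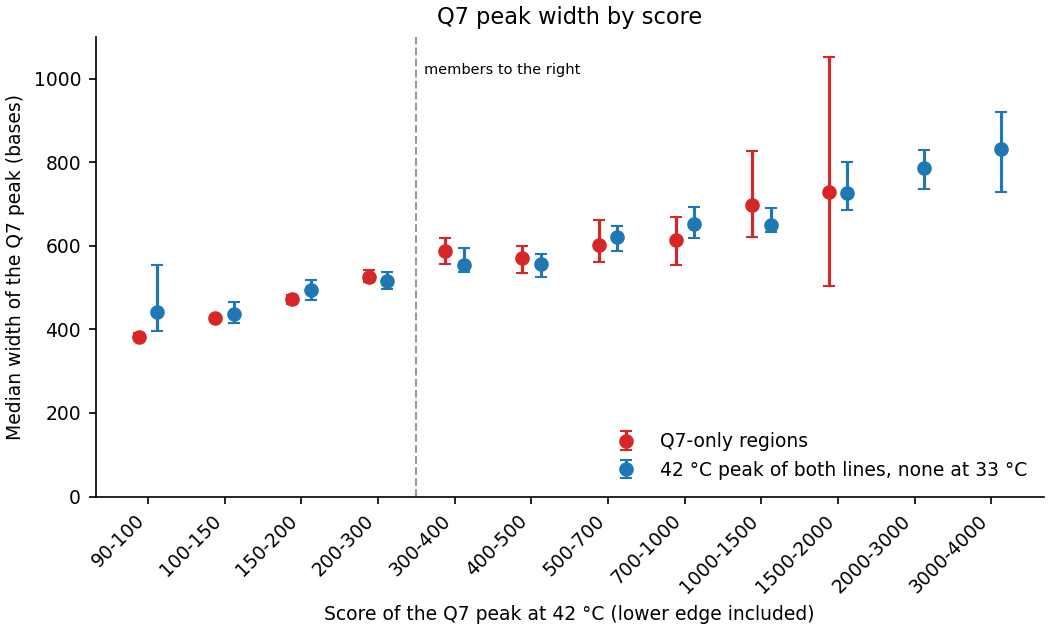
Median width of the Q7 peak at 42 °C in bases (y axis) by its score (x axis, bins), for Q7-only regions and for regions with a 42 °C peak of both lines and none at 33 °C; bars are 95% intervals of the median over regions, and bins with under 5 regions are left out. In the bins from 300 to 2000 the intervals of both classes overlap, with 588 against 554 bases at scores of 300 to 400.

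The widest member, chr15:76026129-76027869, measured 1741 bases and scored 414. It was followed by chr10:59405591-59406905 (1315 bases, score 470.1), chr15:83045610-83046875 (1266 bases, score 395), chr4:117688169-117689414 (1246 bases, score 1076) and chr18:35113581-35114817 (1237 bases, score 756). The narrowest was chr13:102913433-102913681, with 249 bases and a score of 363. The next narrowest were chr10:77236044-77236302, chr16:47480391-47480668, chr1:122485309-122485598 and chr16:96112820-96113114, which measured 259 to 295 bases and scored 315 to 409.8. None of these 10 was among the 20 highest-scoring members.

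Few members lay close to one another, and no matching count is given for the other classes. Of the 635, 42 lay within 20 kb of another member, in 20 groups, of which 18 were pairs and 2 were trios. Chromosome 11 held 5 of the groups. The trio on chromosome 11 consisted of chr11:88309144-88309849 (score 348), chr11:88326189-88326793 (score 345) and chr11:88327431-88327960 (score 565), the last pair 637 bases apart. The trio on chromosome 3 consisted of chr3:93358013-93358963 (score 338), chr3:93359670-93360294 (score 310.0, a gap of 706 bases) and chr3:93372304-93373235 (score 431). The last of these was 2709 bases from a Q111 peak of score 2167, in a region whose Q7 score was 3100.

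Of the pairs, those with the highest scores were on chromosomes 11 and 14. Besides the flanking pair described above, chr11:95018914-95019801 (score 1074) and chr11:95026523-95027556 (score 335) were 6.72 kb apart, and chr11:4090482-4091212 (score 907) and chr11:4110816-4111398 (score 502) were 19.6 kb apart. The members chr14:54681325-54681735 (score 1035) and chr14:54687603-54688139 (score 573) were separated by 5.87 kb. The closest pair outside a trio was chr16:33999622-33999955 (score 312) and chr16:34000652-34001370 (score 504), with a gap of 696 bases. The other 13 pairs had gaps of 4.63 to 18.6 kb and scores of 304 to 752. Counting any Q7 region at 42 °C, 21 members, or 3.31% (2.17 to 5.00), had 3 or more others within 20 kb. The share was 2.75% (2.28 to 3.33) for weaker Q7-only and 4.78% (3.64 to 6.25) for shared strong regions. The members' interval overlapped both of these.

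On a larger scale, members sometimes followed one another along a chromosome with no other strong Q7 region between them. There were 16 such runs of 4 or more members, with 73 members in all. The longest by number, chr6:91026090-93615860, spanned 2.59 Mb and 7 members with scores of 308 to 2181, including the member with the second highest score. Beside the members its span held 3 regions with a Q7 peak at 42 °C, all scoring under 300 and without a Q111 peak at 42 °C, and 1 Q111 peak elsewhere. A run of 6, chr8:87180189-90731587, spanned 3.55 Mb with a highest member score of 599, and held 13 lower-scoring Q7 regions and no Q111 peak at 42 °C. Members lack a Q111 peak by the rule, and 89.6% of all 4190 Q7 regions scoring under 300 had no Q111 peak at 42 °C either, so nothing is read from these counts. Runs of 5 were chr15:25307359-30369301, chr19:44715501-46606337, chr2:19266067-22507784 and chr8:123343985-124751708. The runs were found by searching all chromosomes, and how often runs of this length arise without any regional difference was not tested.

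By chromosome, the members followed the strong Q7 regions. Chromosome 11 held the most, 60 members or 9.45%, followed by chromosome 2 with 45, chromosomes 1 and 10 with 44 each and chromosome 8 with 43. Chromosome X held 3. As a share of each chromosome's strong Q7 regions, members ranged from 13.6% (4.75 to 33.3) on X, 3 of 22, and 25.4% (18.8 to 33.4) on chromosome 5, 34 of 134, to 41.8% (30.7 to 53.7) on chromosome 16, 28 of 67. For 18 of the 20 chromosomes the interval contained the genome-wide 33.6%, and the exceptions were chromosomes 5 and X, whose upper bounds lay just under it.

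**Figure D5:**
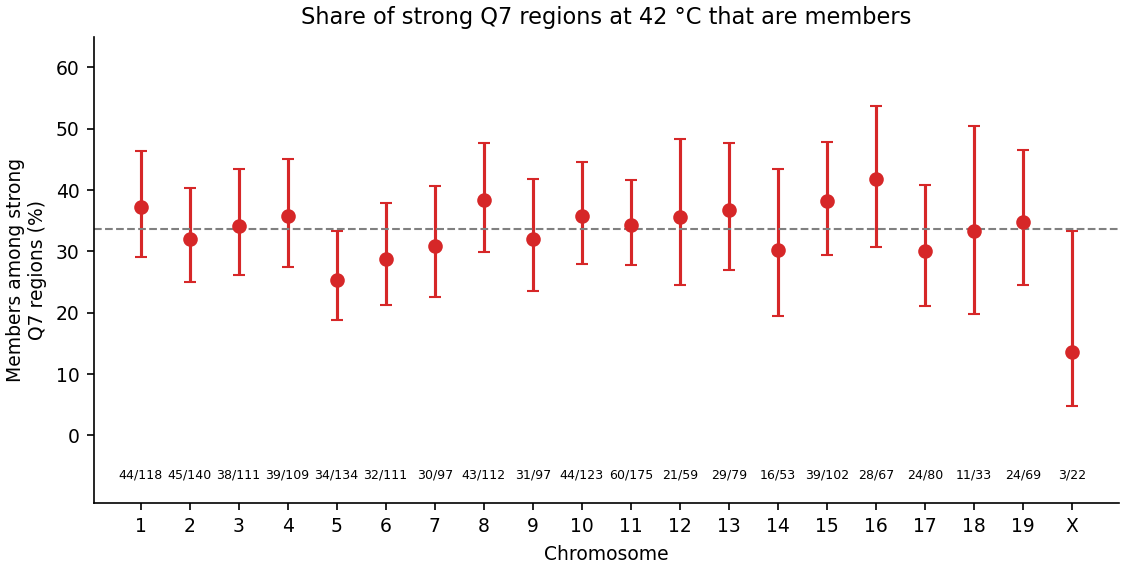
Members as a percent of the regions with a Q7 score of 300 or more on each chromosome (y axis; x axis, chromosome), with 95% Wilson intervals and the counts below; the dashed line is the genome-wide 33.6%. Chromosome 5 (25.4%) and X (13.6%) lie below the line with their intervals, and chromosome 16 (41.8%) is the highest.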

How the data were processed

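The authors deposited 1 peak list per HSF1 library, with position, name and score of each peak. Per the submitters' processing notes, the peak caller was MACS 1.4.0rc2 and the build mm9. The score deposited by the authors was ranked within lists, and Q111 scores set beside Q7 scores are given as a description. Its reading as a p-value on a logarithmic scale is an inference. The sources used here give no aligner, background library, read filter or depth.

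Peaks were merged, classified and measured with pandas 2.3.3, statsmodels 0.14.6, scipy 1.17.1 and numpy 2.4.6 under Python 3.11.15, and plotted with matplotlib 3.10.9. A gap is the number of bases between nearest ends. Shares carry 95% Wilson intervals, and medians order-statistic intervals over regions. No test was run. The member count was checked with bedtools 2.31.1, which also gave 635, and merging and gaps were checked on made-up peaks. The members and comparisons were chosen with earlier results of these data known. Regions named are the 20 highest members, the 5 lowest and the 5 just under the threshold (9 with ties, of which the text names the 4 above the tie), the 5 widest and 5 narrowest, the 5 nearest a Q111 peak at 42 °C, and members within 20 kb of each other. Of the pairs of members within 20 kb, most are given as ranges only. Cases in which the member outscored its neighbour, or lay beside a stronger site, and the runs were picked after their values were seen. Heat shock elements, gene positions and gene lists need mm9 references and were not analysed here.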

Additional observations from a re-analysis of the deposited data

How the results depend on the processing

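Settings were changed in 37 planned repeats, of which 26 gave a value inside the reported interval (for the number of members, within 1.5 times), as did 13 of 14 repeats added after seeing the data. A minimum score of 200 gave 1316 members, a Q7-only share of 47.6% and a median width of 560 bases, and a minimum of 500 gave 236 members, 20% and 622 bases. With that minimum, members near a Q111 peak outscored their neighbour in 58.8% of pairs instead of 35.9%. With a gap of at most 2 kb, a Q111 peak at 42 °C was near 1.73% and another Q7 peak near 7.09% of members. With 50 kb these were 21.3% and 51.2%, and a 33 °C peak was near 2.52%. A wider gap limit can only raise a share, and a higher minimum score can only lower the number of members. The Q7-only share fell with each step of the score, so the share above a minimum also falls as that minimum rises. In the pairs the minimum score applies to the member and not to its neighbour, so a higher minimum favours the member through the choice of pairs. The cause of the move in median width with the minimum score was not tested. Merging peaks up to 500 bases apart, autosomes alone, keeping the chromosome 13 window, and removing members with 3 or more other Q7 regions within 20 kb left the results they were tried on within those limits. Ending membership only by a Q111 peak at 42 °C gave 639 members. The planned repeats on heat shock elements and on gene starts were not run. No paired analysis was possible because each group has 1 library. Unknown read depth limits every share.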

Other observations

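The 4 strong Q7 regions kept out of the membership only by a Q7 peak at 33 °C were without a Q111 peak at either temperature. They lay on chr8:125572026-125572705 (Q7 score 1335 at 42 °C and 103 at 33 °C), chr15:64454074-64454823 (619 and 124), chr2:59031217-59031735 (547 and 95.6) and chr3:96961871-96962366 (333 and 183). Of the 210 strong Q7 regions with a 33 °C peak in either line, the other 206 held a Q111 peak at 42 °C.

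The same rule applied to the Q111 list at 42 °C gave 19 of 727 regions with a Q111 score of 300 or more and no other peak, or 2.61% (1.68 to 4.05), the highest at 1297. The Q111 list is shorter and scores are not comparable between lists, so this share and the 33.6% of the Q7 list are given side by side without a test.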
